A study of Homo sapiens with 8 samples.

Results

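The nuclear-encoded subunits of respiratory complex I are described here at the level of their mRNAs. They were taken as every table entry whose symbol is NDUFA, NDUFB, NDUFC, NDUFS, NDUFV or NDUFAB followed by a number, which gave 38 mRNAs of 26902 entries. Assembly factors (NDUFAF symbols) fall outside that rule and are listed only beside the subunits. One symbol, NDUFA4, is carried under the current RefSeq symbol COXFA4 (chromosome 7, 10931943 to 10940153) and encodes a protein now assigned to cytochrome c oxidase, so it is given apart from the other 37.

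The libraries came from U2OS, an established human osteosarcoma line, with QKI7 overexpressed or with an empty vector. QKI7 is a splice form of QKI, which binds RNA and acts on its splicing, stability and translation. All cells, the vector controls included, received 0.5 mM sodium arsenite for 1 h before harvest, and no untreated cells were analysed here. The 4 groups were QKI7 footprints, vector footprints, QKI7 inputs and vector inputs, with 2 libraries each; footprints are the RNA fragments of 17 to 34 nt protected by ribosomes, and inputs are the RNA before ribosome isolation. Nothing in the labels tells whether 2 libraries of a group are separate cultures. The p-values below reflect a spread between libraries that is pooled over all 4 groups and may be technical. The promoter of the construct and the way it was introduced are not stated in the labels.

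Complex I passes electrons from NADH to ubiquinone and pumps protons across the inner mitochondrial membrane. Its matrix arm holds the flavin, the iron-sulfur clusters and the quinone site, and its membrane arm holds the proton channels, whose central proteins are encoded in mitochondrial DNA. The conserved core subunits carry out catalysis, while the supernumerary subunits surround them and are needed for assembly and stability. Inhibited or damaged complex I is a known source of superoxide, and arsenite is an oxidative stressor of mitochondria.

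Levels are given as normalised TPM. This is the deposited TPM (a transcript's share of all RNA in the library, corrected for its length) multiplied by a factor for each library. The factor levels the libraries by the median of the genes tested (defined below) that are above 0 in all 8, and not of all protein-coding genes. It also holds a common constant that makes the protein-coding entries of an average library sum to 1000000. The step was needed because protein-coding entries held only 0.687% and 0.696% of deposited TPM in QKI7 footprints, against 0.710% and 0.711% in vector footprints, and 4.53% and 4.25% in QKI7 inputs, against 3.73% and 4.01% in vector inputs. Read depth cannot be recovered from TPM and is unknown, so no counting interval is given. QKI, the overexpressed gene, stood at 4738 ± 46.8 normalised TPM in QKI7 footprints and 96.5 ± 9.56 in vector footprints, and at 32604 ± 847 in QKI7 inputs and 69.5 ± 2.94 in vector inputs (SD, n = 2 each), so the libraries matched their labels. Of 8 mesenchymal and bone markers, 6 averaged at least 1 deposited TPM in inputs (COL1A2 and RUNX2 did not), with sums of 127 to 136 TPM in QKI7 inputs and 140 to 144 TPM in vector inputs, and 0 of 5 epithelial, 0 of 5 blood and 0 of 4 neural markers did. Changes were tested with limma on log2(normalised TPM + 1), with Benjamini-Hochberg adjustment over the 2715 protein-coding genes that had enough signal and 0.05 as the threshold, and "called" means past it.

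Of the 38 subunit mRNAs, 21 passed the filter on low values and were tested. The other 17 were NDUFA1, NDUFA2, NDUFA4, NDUFA5, NDUFA7, NDUFA8, NDUFA10, NDUFA11, NDUFAB1, NDUFB1, NDUFB2, NDUFB3, NDUFB4, NDUFB5, NDUFC1, NDUFC2 and NDUFS7. A lower filter, chosen after the data were seen, brought in 12 of these and left out 5 (NDUFA5, NDUFA8, NDUFA10, NDUFA11 and NDUFC2). RefSeq names at least 1 pseudogene copy for 19 of the 38 and another gene overlapping 16 of them. The labels do not state how reads were split between such copies or between strands, so values of NDUFB9 (3 named copies), NDUFS5 (7), NDUFA3 (6), NDUFV2 (1, and an antisense gene) and other members with copies are uncertain to that extent.

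Windows around the annotated starts were searched for 3 sets of letters, the first being those of TISU. TISU is known as a start-codon context of mRNAs with very short leaders, and its letters AAGATGGCG, which hold an ATG, also occur in the binding motif of the transcription factor YY1. In RefSeq windows from 250 bases before to 50 bases after the annotated start (GRCh38.p14), searched on both strands, the letters occurred in 614 of 35116 windows (1.75%) and in 6 of the 40 windows of the 33 subunit genes that have one (15.0%). In all 6 they lay on the gene's strand after the annotated start, where 0.945% of all windows hold them. The 30-base stretches are shown so that the match can be set beside the measured footprints, with its letters in capitals. Whether the ATG in them is the start codon in use, and how long the leaders are in U2OS cells, was not tested.
NDUFA6, chr22:42090728-42090757, minus strand: atgctttggcAAGATGGCGgggagcggcgt
NDUFA7, chr19:8321342-8321371, minus strand: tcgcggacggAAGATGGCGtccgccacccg
NDUFA9, chr12:4649114-4649143, plus strand: attgtgggaaAAGATGGCGgctgccgcaca
NDUFB8, chr10:100529835-100529864, minus strand: gaagaaggtgAAGATGGCGgtggccagggc
NDUFS4, chr5:53560650-53560679, plus strand: tgcctgcagcAAGATGGCGgcggtgtcaat
NDUFS7, chr19:1383914-1383943, plus strand: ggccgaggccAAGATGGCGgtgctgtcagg

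The match began 11 to 26 bases after the annotated start, at base 26 in NDUFA6, 15 in NDUFA7, 11 in NDUFA9, 18 in NDUFB8, 22 in NDUFS4 and 18 in NDUFS7. Among the 4 of these mRNAs that were tested (NDUFA6, NDUFA9, NDUFB8 and NDUFS4), 0 were called between QKI7 and vector footprints. Of all genes tested, 13.7% were called lower and 16.8% higher, and 4 mRNAs are too few to set against these shares. Their log2 changes were -0.46, -0.03, -0.02 and -0.07. The smallest adjusted p in limma among them was 0.0788, that of NDUFA6, the 1 of them with an unadjusted p under 0.05. In inputs NDUFB8 was called lower (adjusted p = 0.0325). The core letters of the NRF1 motif, GCATGCGC, were found in the windows of NDUFA5, NDUFA6, NDUFA8, NDUFB4, NDUFS6 and NDUFS7 (6 of 40 windows, 15.0%, against 3.05% of all windows), and the ETS letters CCGGAAG in those of NDUFA1, NDUFA13, NDUFB7, NDUFS1 and NDUFS3 (5 of 40, 12.5%, against 10.3%). A match of letters is a description and not a site.

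Together the 38 mRNAs took 8759 and 8671 normalised TPM of QKI7 footprints, against 10041 and 10301 of vector footprints. In inputs they took 1546 and 1532 normalised TPM in QKI7 cells, against 1739 and 1712 in vector cells. Both sums were lower in each QKI7 library than in each vector library of the same kind on this scale. On the deposited scale the footprint sums still did not overlap, at 50.3 and 51.0 TPM in QKI7 cells, against 63.8 and 65.8 TPM in vector cells, while the input sums did, at 81.4 and 75.6 TPM in QKI7 cells, against 77.7 and 82.5 TPM in vector cells. These sums follow the most abundant members, and no test was made of them. Bulk libraries cannot tell a lower RNA content per cell from fewer cells that hold it.

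NDUFA13, also known as GRIM-19 and part of the proximal membrane arm, was the most abundant subunit mRNA in every input library. It stood at 256 and 208 normalised TPM in QKI7 inputs, against 269 and 247 in vector inputs. NDUFS5, a small subunit on the intermembrane-space face, followed at 138 and 140 in QKI7 inputs, against 171 and 130 in vector inputs, and NDUFV1, which binds NADH and the flavin, at 101 and 97.2, against 102 and 107. At the low end of inputs, NDUFA8 was at 1.14 and 3.85 in QKI7 cells and 0.224 and 1.66 in vector cells, NDUFC2 at 1.52 and 2.84 against 2.91 and 3.32, and NDUFA11 at 5.32 and 3.44 against 2.46 and 4.56. In NDUFA8 and NDUFA11 the QKI7 and vector libraries overlapped.

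The order was different in footprints. NDUFS5 had the highest footprint level in every library, with 875 and 867 normalised TPM in QKI7 cells, against 1102 and 1375 in vector cells. NDUFA4 came next at 629 and 702 in QKI7 footprints, against 748 and 712 in vector footprints, while its inputs were low, at 6.08 and 4.05 in QKI7 cells, against 6.27 and 5.19 in vector cells. NDUFA5, a matrix arm subunit, was lowest at 13.9 and 5.10 in QKI7 footprints, against 7.87 and 15.6 in vector footprints. NDUFA10, which resembles nucleoside kinases, had 24.4 and 20.4 in QKI7 footprints, against 36.2 and 34.4 in vector footprints, at a deposited 0.14 and 0.12 TPM against 0.23 and 0.22 TPM, where the 2-decimal rounding of the file is coarse. NDUFS7, the core subunit next to the quinone site, was second lowest by mean in vector footprints and followed NDUFA11 in QKI7 footprints, at 17.4 and 51.0 in QKI7 footprints, against 29.9 and 32.9 in vector footprints.

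Across the 38 mRNAs, input and footprint means had a Spearman correlation of 0.124 in QKI7 cells and 0.228 in vector cells. QKI7 and vector means had one of 0.941 in footprints and 0.956 in inputs. The points of each pair share normalisation and transcript lengths, and these values describe the set only.

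**Figure D1:**
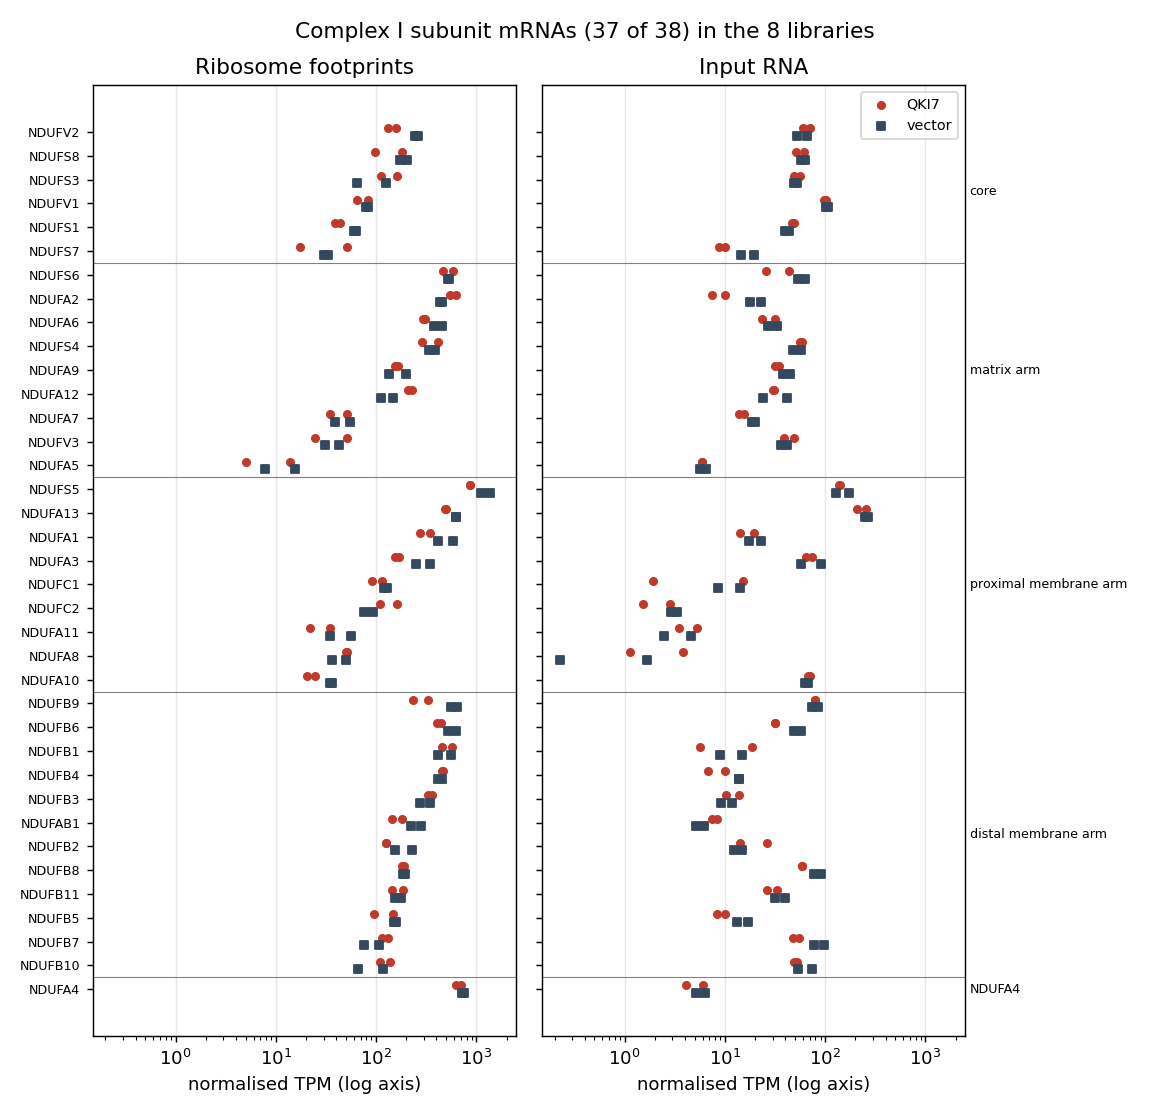
Normalised TPM (log axis) of 37 of the 38 subunit mRNAs in the 2 QKI7 (circles) and 2 vector (squares) libraries, for footprints on the left and inputs on the right, grouped by place in the complex and ordered by mean vector footprint. NDUFS5 heads the footprints and NDUFA13 the inputs, and NDUFA4 sits between 629 and 748 in footprints but below 7 in inputs.

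Relative to other genes, most of the 21 subunit mRNAs tested held a larger share of footprints than of input RNA in both kinds of cell. Over all 38, the median ratio of footprint mean to input mean was 5.83 in QKI7 cells and 5.79 in vector cells. These medians include the 17 mRNAs below the main filter, most of them low in inputs, where a high ratio is favoured. No value of all genes on that basis is given, so the 2 medians are a description only. Among the 21 tested, 17 were higher in footprints than in inputs in QKI7 cells (81.0%, against 37.7% of all genes tested) and 17 in vector cells (81.0%, against 39.3%). Only NDUFV1 was called lower in either, 1 of 21 in each, where 38.3% of all genes tested were called lower in QKI7 cells and 40.6% in vector cells. The median log2 ratio of the 21 was 1.36 in QKI7 cells and 1.96 in vector cells, beside 0.01 and -0.01 for all genes tested. The ratio compares shares of mRNA per transcript length and is no rate of translation.

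The sign of that ratio depends on the scale. With the deposited TPM taken as they stand, 8 of 27 subunit mRNAs were called higher (29.6%, against 7.42% of all entries tested so) and 17 lower (63.0%, against 90.8%) in QKI7 footprints than in QKI7 inputs. In vector cells 8 were called higher (29.6%, against 7.70%) and 15 lower (55.6%, against 89.9%). On that scale the medians were -0.49 in QKI7 cells and -0.44 in vector cells, beside -1.97 and -1.81 for all entries tested, so the subunit mRNAs stood above the median entry on both scales. Scaling protein-coding entries to equal sums gave medians of 0.89 in QKI7 cells and 1.55 in vector cells, beside -0.45 and -0.43 for all genes.

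By place in the complex, the median ratio was lowest for the core. The 7 core subunit mRNAs had a median ratio of 2.21 in QKI7 cells and 1.88 in vector cells, and the 9 supernumerary matrix arm mRNAs one of 6.10 and 4.03. The 9 proximal membrane arm mRNAs had a median ratio of 6.50 in QKI7 cells and 11.1 in vector cells, and the 12 distal membrane arm mRNAs, which include the acyl carrier protein NDUFAB1, one of 9.69 and 10.4. No test was made between these classes, and their ranges overlapped.

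NDUFV1 was one of 3 mRNAs below 1 in both kinds of cell, with ratios of 0.747 in QKI7 cells and 0.778 in vector cells. It had 83.6 and 64.6 normalised TPM in QKI7 footprints and 101 and 97.2 in QKI7 inputs, which do not overlap (log2 -0.43, adjusted p = 0.0255 in limma). In vector cells it had 83.4 and 79.8 in footprints and 102 and 107 in inputs, also without overlap (log2 -0.36, adjusted p = 0.0485). The QKI7 call was lost without either QKI7 input library or QKI7 footprint library 2 (adjusted p up to 0.122), and the vector call in 6 of 8 fits that left out a library (adjusted p up to 0.184). The vector call was also lost with quantile scaling (0.0882), no filter (0.0586), a robust prior (0.0502) and the replicate block (0.0566). NDUFV3, which sits beside NDUFV1 and NDUFV2, had ratios of 0.857 in QKI7 cells and 0.944 in vector cells, with log2 values of -0.30 and -0.09 that were not called (adjusted p = 0.435 and 0.803). NDUFA10 was the lowest, at 0.328 in QKI7 cells and 0.542 in vector cells.

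NDUFA4 stood at the other end, with a footprint mean 131 times its input mean in QKI7 cells and 127 times in vector cells. Its deposited inputs were only 0.32 and 0.20 TPM in QKI7 cells and 0.28 and 0.25 TPM in vector cells. RefSeq names 5 pseudogene copies of it, so the size of this ratio is uncertain. NDUFAB1, the mitochondrial acyl carrier protein, reached 20.7 in QKI7 cells and 44.3 in vector cells, on input means of 7.86 and 5.69 normalised TPM. NDUFA8, a cysteine-rich subunit of the intermembrane-space face, reached 20.4 and 45.8, on input means of only 2.49 and 0.942 normalised TPM. Among the subunits tested, the mRNAs with the highest log2 ratio in vector cells were NDUFA6, a LYR-motif subunit that docks the acyl carrier protein, at 3.75, NDUFB6 at 3.40 and NDUFS6, a zinc-binding matrix arm subunit, at 3.15 (adjusted p = 1.17e-07, 4.09e-08 and 1.85e-06).

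With the lower filter, 29 of 33 subunit mRNAs were higher in footprints than in inputs in QKI7 cells (87.9%, against 46.8% of all genes tested so) and 28 of 33 in vector cells (84.8%, against 48.3%). The genes it adds average 0.2 to 1 deposited TPM in inputs and at least 0.2 in footprints. At library factors of 19.0 to 22.4 for inputs and 156 to 174 for footprints, a higher footprint mean was nearly fixed for them beforehand. The counts with this filter therefore add no support. With the main filter, the mRNAs of the other respiratory complexes and of cytosolic ribosomal proteins shared the pattern of higher footprints. For complexes II to V, 23 of 24 tested were higher in footprints in each kind of cell, with a median log2 ratio of 2.42 in QKI7 cells and 2.995 in vector cells. For cytosolic ribosomal proteins, 70 of 74 were higher in QKI7 cells and 68 of 74 in vector cells (medians 2.91 and 2.81), and for mitochondrial ribosomal proteins 30 and 31 of 45 (medians 1.07 and 1.204).

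**Figure D2:**
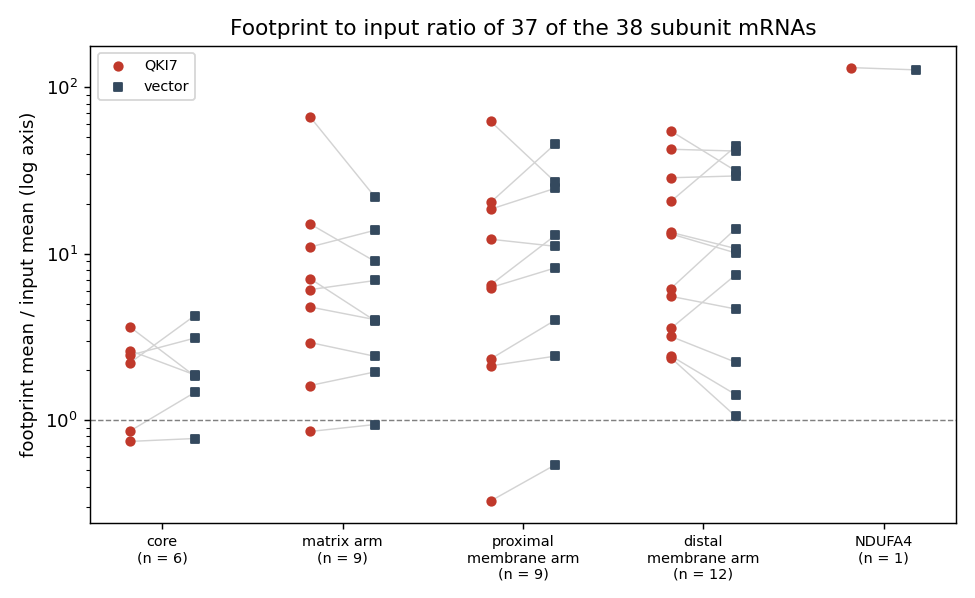
Ratio of footprint mean to input mean (log axis) of 37 of the 38 subunit mRNAs in QKI7 (circles) and vector (squares) cells, by place in the complex, with a grey line joining the same mRNA and a dashed line at 1. Core subunits lie between 0.747 and 3.65 in QKI7 cells and between 0.778 and 4.26 in vector cells, while NDUFA4 lies above 100 in both.

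The comparison of footprints asks which subunit mRNAs took a larger or smaller share of ribosome footprints in QKI7 cells than in vector cells. NDUFB9, NDUFA3, NDUFV2, NDUFS1, NDUFS5, NDUFB6 and NDUFA13 were lower in QKI7 footprints, and NDUFA12 was higher. The 7 lower ones were 33.3% of the 21 tested, against 13.7% of all genes tested, and the 1 higher one was 4.76%, against 16.8%. The median log2 change of the 21 was -0.15, beside -0.03 for all genes, and 17 of 21 had a negative sign. At least 1 mRNA fell in the core, the proximal membrane arm and the distal membrane arm, and 0 of 6 tested fell among the supernumerary matrix arm subunits in limma, where 1 lower one (NDUFA6) had an unadjusted p under 0.05.

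NDUFB9 (chromosome 8, 124539123 to 124549979 in GRCh38), a distal membrane arm subunit of the LYR family, fell most. It had 328 and 233 normalised TPM in QKI7 footprints, against 638 and 555 in vector footprints. Both QKI7 libraries lay below both vector libraries, and the QKI7 mean was 0.470 of the vector mean (280 ± 66.9 and 596 ± 58.1, SD, n = 2 each). The log2 change was -1.10 (SE 0.165, adjusted p = 0.00212 in limma). Its inputs were 78.6 and 78.6 in QKI7 cells, against 73.5 and 85.7 in vector cells, which overlap.

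Among the core subunits, NDUFV2 and NDUFS1 fell. NDUFV2 (chromosome 18, 9102699 to 9134341), an iron-sulfur subunit of the NADH-oxidising tip, had 131 and 160 normalised TPM in QKI7 footprints, against 261 and 242 in vector footprints. The groups did not overlap and the QKI7 mean was 0.577 of the vector mean (log2 change -0.80, SE 0.161, adjusted p = 0.0077 in limma). NDUFS1 (chromosome 2, 206114817 to 206159444), the largest subunit and the carrier of several iron-sulfur clusters, had 43.6 and 39.1 in QKI7 footprints, against 59.8 and 62.6 in vector footprints. These did not overlap either (log2 change -0.56, SE 0.156, adjusted p = 0.0284).

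No other core subunit was called in footprints. NDUFS8, an iron-sulfur subunit of the quinone module, had 97.6 and 180 normalised TPM in QKI7 footprints, against 173 and 205 in vector footprints (log2 -0.50, adjusted p = 0.176 in limma). NDUFS3, also of the quinone module, had 113 and 162 in QKI7 footprints, against 126 and 64.1 in vector footprints (log2 0.58, adjusted p = 0.174). NDUFV1 had 83.6 and 64.6 in QKI7 footprints, against 83.4 and 79.8 in vector footprints (log2 -0.15, adjusted p = 0.469). In these 3 the QKI7 and vector libraries overlapped.

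All 3 proximal membrane arm mRNAs that passed the main filter were called lower in footprints, as were 13.7% of all genes tested. With the lower filter they were 3 of 5 (60%, against 12.0%). NDUFA3 (chromosome 19, 54102855 to 54107568), a small subunit with 1 membrane helix, had 155 and 168 normalised TPM in QKI7 footprints, against 249 and 343 in vector footprints (log2 change -0.85, SE 0.225, adjusted p = 0.023 in limma). NDUFS5 (chromosome 1, 39026350 to 39034615) had the 875 and 867 against 1102 and 1375 given above (log2 change -0.50, SE 0.141, adjusted p = 0.0293). NDUFA13 (chromosome 19, 19516225 to 19528198) had 491 and 495 in QKI7 footprints, against 628 and 629 in vector footprints (log2 change -0.35, SE 0.104, adjusted p = 0.0358). In none of the 3 did the QKI7 libraries overlap the vector libraries, and the share of all genes without overlap is not given here. The other 6 mRNAs of this arm did not pass the main filter. Of these, NDUFA1, NDUFA10 and NDUFC1 had QKI7 footprints below vector footprints, NDUFA8 and NDUFC2 above, and NDUFA11 overlapping.

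NDUFB6 (chromosome 9, 32553001 to 32573159), a distal membrane arm subunit, had 444 and 408 normalised TPM in QKI7 footprints, against 516 and 632 in vector footprints (log2 change -0.42, SE 0.133, adjusted p = 0.0434 in limma). NDUFA12 (chromosome 12, 94971333 to 95003697), a matrix arm subunit related to the assembly factor NDUFAF2, had 207 and 228 in QKI7 footprints, against 112 and 147 in vector footprints, and was the only subunit mRNA of the 21 tested called higher (log2 change 0.76, SE 0.248, adjusted p = 0.0496). Neither pair of groups overlapped. Of those just past the threshold on the other side, NDUFA6 had 307 and 294 in QKI7 footprints, against 379 and 451 in vector footprints (log2 -0.46, adjusted p = 0.0788).

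The calls of NDUFB9 and NDUFV2 held in all 8 fits that left out 1 library each (adjusted p up to 0.0154 and 0.0371 in limma). Those of NDUFA3 and NDUFS5 were lost without either QKI7 footprint library or vector footprint library 2 (adjusted p up to 0.114 and 0.144). NDUFS1 was called in 2 of 8 such fits, those without QKI7 or vector footprint library 1 (otherwise up to 0.0731), NDUFA13 in 2, those without a QKI7 input library (otherwise up to 0.0966), NDUFA12 in 2, those without a vector input library (otherwise up to 0.202), and NDUFB6 in 1, that without vector footprint library 1 (otherwise up to 0.176). All 8 mRNAs kept their sign in these fits.

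Other settings also ended some of these calls in limma. NDUFA12, the only higher one, was not called on the deposited scale (adjusted p = 0.216), with protein-coding entries scaled to equal sums (0.072), a pseudocount of 0.1 (0.0527), no filter (0.096), the lower filter (0.0562), no variance trend (0.0658), a robust prior (0.0501) or the replicate block (0.062). NDUFB6 was not called with quantile scaling (0.193) or the replicate block (0.0511), among others, NDUFA13 and NDUFS5 with quantile scaling (0.223 and 0.115) or no variance trend (0.0811 and 0.0628), and NDUFA3 and NDUFS1 on the deposited scale (0.106 and 0.218). With no filter, NDUFA3, NDUFA13, NDUFB6 and NDUFS5 were not called either (adjusted p between 0.0556 and 0.0767). In a fit of the footprint libraries alone, NDUFS1 (adjusted p = 0.147 in limma) and NDUFB6 (0.0603) lost their calls and the others kept theirs.

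**Figure D3:**
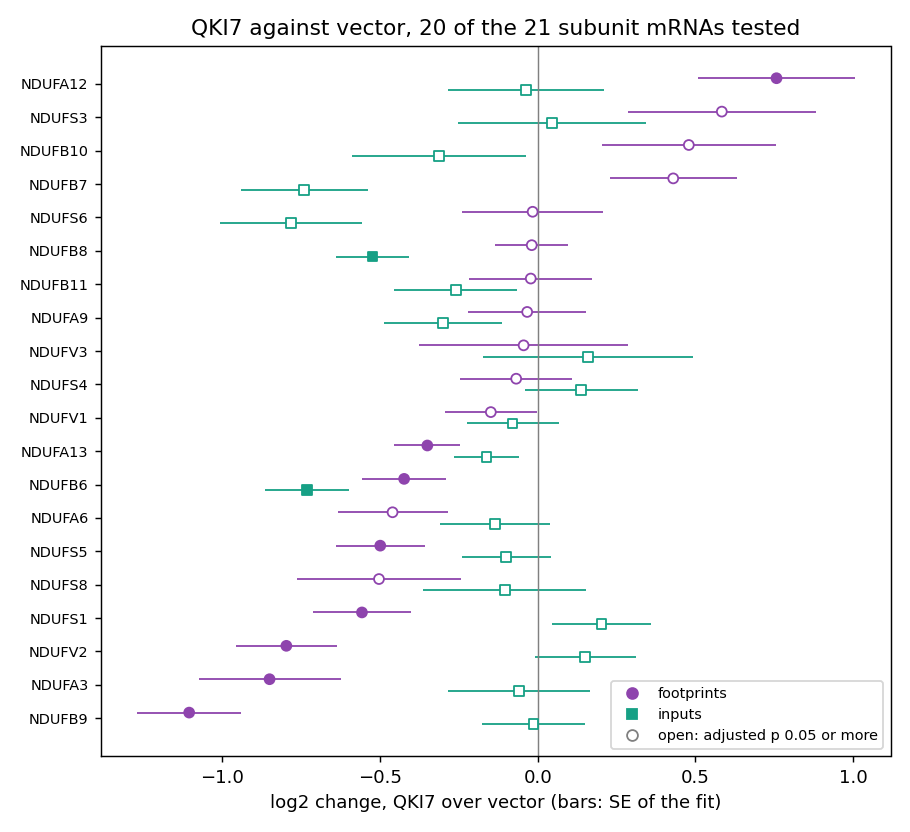
Log2 change of QKI7 over vector (x axis, bars are the SE of the fit) for 20 of the 21 subunit mRNAs tested, in footprints (circles) and inputs (squares), ordered by the footprint change. Filled points have an adjusted p under 0.05: 7 fell and 1 rose in footprints, and 2 fell in inputs.

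In inputs, which measure RNA level, the distal membrane arm mRNAs NDUFB6 and NDUFB8 fell. They were 9.52% of the 21 tested, against 6.04% of all genes tested, and 0 of 21 rose in limma (0 at an unadjusted p under 0.05 too), against 1.33% of all genes, so the share called lay near that of all genes. The median log2 change was -0.10, beside -0.01 for all genes, with 15 of 21 negative. NDUFB6 had 31.9 and 31.4 normalised TPM in QKI7 inputs, against 49.1 and 57.7 in vector inputs (log2 change -0.73, SE 0.133, adjusted p = 0.0136 in limma). NDUFB8 (chromosome 10, 100523729 to 100529923) had 58.1 and 58.3 in QKI7 inputs, against 90.9 and 77.8 in vector inputs (log2 change -0.52, SE 0.116, adjusted p = 0.0325). The QKI7 and vector libraries did not overlap in either.

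The call of NDUFB6 in inputs was lost without either QKI7 input library or vector input library 2 (adjusted p up to 0.105 in limma), and that of NDUFB8 without any one of the 4 input libraries (adjusted p up to 0.275). NDUFS6 and NDUFB7 had log2 changes as large without being called: NDUFS6 had 25.8 and 43.8 normalised TPM in QKI7 inputs, against 63.6 and 53.9 in vector inputs (log2 -0.78, adjusted p = 0.0784), and NDUFB7 47.7 and 55.3 against 97.0 and 77.0 (log2 -0.74, adjusted p = 0.0649). Of the 6 core subunits tested, 0 were called in inputs by limma and 0 had an unadjusted p under 0.05. On the deposited TPM as they stand, 6 of 27 fell in inputs (22.2%, against 5.48% of all entries tested so) and 1 rose (3.70%, against 39.1%). The calls of NDUFB6 and NDUFB8 were lost with no filter (adjusted p = 0.102 and 0.16 in limma), and that of NDUFB8 also with no variance trend (0.0518) and with the replicate block (0.0549).

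Translation efficiency, the change in footprints beyond that in inputs, was tested as the interaction of library type and construct. NDUFB9 and NDUFV2 fell in this measure (9.52% of 21, against 3.06% of all genes tested) and NDUFB7 rose (4.76%, against 9.50%). The median of the 21 was -0.19, beside 0.05 for all genes, with 12 of 21 negative, but its sign turned with the lower filter (0.03) and without QKI7 footprint library 1 (0.04) or 2 (0.05). NDUFB9 changed by -1.09 (SE 0.233, adjusted p = 0.0195 in limma) and NDUFV2 by -0.95 (SE 0.227, adjusted p = 0.0294). In both, the footprints fell while the QKI7 and vector inputs overlapped, NDUFV2 inputs being 71.2 and 60.2 normalised TPM in QKI7 cells, against 52.6 and 65.8 in vector cells.

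NDUFB7 (chromosome 19, 14566078 to 14572066), a cysteine-rich distal membrane arm subunit facing the intermembrane space, changed the other way, by 1.17 (SE 0.284, adjusted p = 0.0311 in limma). It had 131 and 114 normalised TPM in QKI7 footprints, against 75.6 and 108 in vector footprints, beside the lower QKI7 inputs given above. Neither its footprints nor its inputs were called alone (adjusted p = 0.14 and 0.0649). Leaving out 1 library lost the call of NDUFB7 in 6 of 8 fits, all but those without QKI7 or vector footprint library 2 (adjusted p up to 0.135). With no filter all 3 calls were lost (adjusted p = 0.106 for NDUFB7, 0.0802 for NDUFB9 and 0.0977 for NDUFV2), and that of NDUFB7 also with no variance trend (0.0502). In the fits that left out a library, that of NDUFB9 was lost without either QKI7 input library, vector input library 1 or vector footprint library 1 (up to 0.0845), and that of NDUFV2 without these or QKI7 footprint library 1 (up to 0.124). NDUFS1 was next in size of evidence, with log2 -0.76 (adjusted p = 0.0603).

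**Figure D4:**
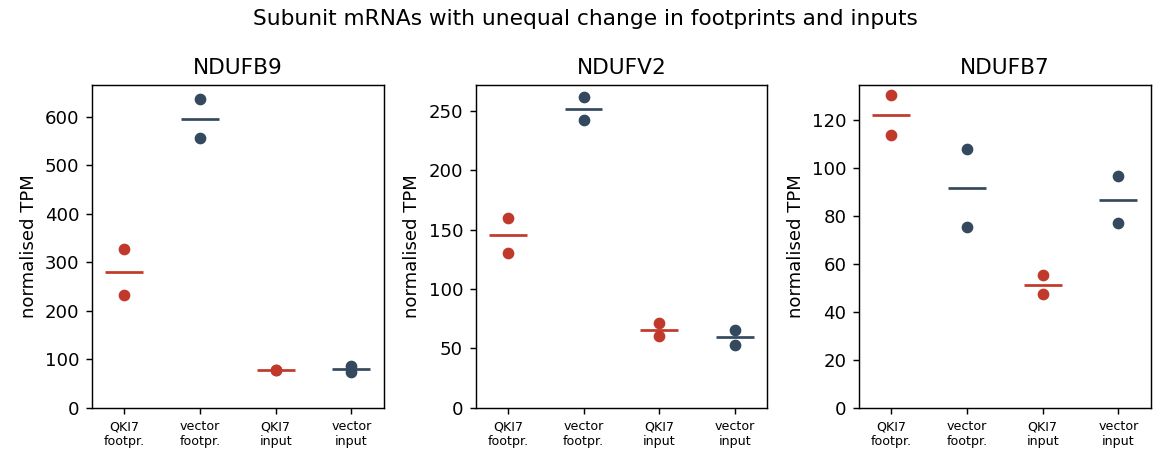
Normalised TPM (y axis, from 0, a different range in each panel) of NDUFB9, NDUFV2 and NDUFB7 in each library (points) with group means (lines), for QKI7 and vector footprints and then QKI7 and vector inputs. QKI7 footprints of NDUFB9 and NDUFV2 lie below vector footprints (328 and 233 against 638 and 555 for NDUFB9) at overlapping inputs, and QKI7 inputs of NDUFB7 lie below vector inputs.

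Members left out by the main filter were read with the lower filter, which tests 3210 genes. In footprints the same 7 mRNAs fell (7 of 33, 21.2%, against 12.0% of all genes tested so), so none of the 12 added mRNAs was among them. With this filter 0 of 33 rose in footprints (14.3% of all genes tested so), since NDUFA12 was no longer called (adjusted p = 0.0562 in limma). In inputs 3 of 33 fell (9.09%, against 5.05%) and in translation efficiency 2 rose (6.06%, against 7.98%), and the added mRNA in both was NDUFA2. NDUFA2 (chromosome 5, 140645285 to 140647630), a matrix arm subunit with a thioredoxin-like fold, had 7.40 and 10.1 normalised TPM in QKI7 inputs, against 17.7 and 23.0 in vector inputs (log2 change -1.13, SE 0.184, adjusted p = 0.00822 in limma). In footprints it had 622 and 542 in QKI7 cells, against 457 and 435 in vector cells (log2 0.38, adjusted p = 0.162). The groups did not overlap in either, and translation efficiency rose by 1.51 (SE 0.26, adjusted p = 0.0101). Its deposited inputs were only 0.39 and 0.5 TPM in QKI7 cells, against 0.79 and 1.11 TPM in vector cells, in a file rounded to 2 decimals. With no filter the call in inputs was lost (adjusted p = 0.0648 in limma) and that in translation efficiency was kept (0.0423). The gene TMCO6 overlaps NDUFA2.

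NDUFAB1 had 145 and 180 normalised TPM in QKI7 footprints, against 225 and 278 in vector footprints, and 7.40 and 8.31 in QKI7 inputs, against 5.15 and 6.22 in vector inputs. Neither pair overlapped, and neither was called with the lower filter (log2 -0.63 and 0.41, adjusted p = 0.0565 and 0.36 in limma). NDUFA1, a small membrane subunit encoded on the X chromosome, had 348 and 277 in QKI7 footprints, against 584 and 415 in vector footprints (log2 -0.66, adjusted p = 0.0728). NDUFA4 differed little in footprints (log2 -0.13, adjusted p = 0.634) and in inputs (log2 -0.17, adjusted p = 0.733). The core mRNA NDUFS7 had 10.1 and 8.71 in QKI7 inputs, against 19.5 and 14.5 in vector inputs, without overlap but not called (log2 -0.78, adjusted p = 0.431). NDUFA7, NDUFB1, NDUFB2, NDUFB3, NDUFB4, NDUFB5 and NDUFC1 make up the rest of the 12, with 0 calls in limma between QKI7 and vector cells in footprints, inputs or translation efficiency. At an unadjusted p under 0.05, NDUFB4 and NDUFB5 were lower in inputs, and NDUFB2 was lower and NDUFB4 higher in translation efficiency.

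Among the 5 mRNAs below both filters, NDUFA10 had QKI7 footprints below vector footprints without overlap, at the values given above (0.634 of the vector mean), and overlapping inputs of 66.6 and 70.1 normalised TPM in QKI7 cells, against 62.5 and 67.8 in vector cells. NDUFC2 had 162 and 111 in QKI7 footprints, against 92.9 and 75.1 in vector footprints, in a gene that overlaps the read-through gene NDUFC2-KCTD14. NDUFA11 had 34.9 and 22.1 in QKI7 footprints, against 34.6 and 56.3 in vector footprints, which overlap. NDUFA8 had 50.5 and 51.0 in QKI7 footprints, against 36.2 and 50.1 in vector footprints, and NDUFA5 overlapped in footprints and inputs. No call is given for these 5.

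Other genes of the pathway were read from lists, by counts and medians. Of 17 complex I assembly factors, 4 were tested and 0 were called between QKI7 and vector in footprints, inputs or translation efficiency, with median log2 changes of -0.12, 0.19 and -0.32. At an unadjusted p under 0.05, limma had 1 of the 4 lower in footprints (TIMMDC1), 0 in inputs and 2 lower in translation efficiency (TIMMDC1 and NDUFAF2). Of 40 subunits of complexes II to V, 24 were tested: 7 fell in footprints (29.2%, median -0.27), 8 fell in inputs (33.3%, median -0.13) and 0 rose in either (1 and 2 at an unadjusted p under 0.05 in limma), against the shares of all genes given above. In translation efficiency 2 fell and 3 rose (median -0.12). COX6A1, a cytochrome c oxidase subunit, fell in both: 827 ± 44.8 normalised TPM in QKI7 footprints and 1461 ± 22.4 in vector footprints, and 72.2 ± 0.986 in QKI7 inputs and 121 ± 5.20 in vector inputs (SD, n = 2 each; log2 -0.82 and -0.73, adjusted p = 0.000302 and 0.000929 in limma). The ATP synthase subunits ATP5O, ATP5H and ATP5A1 fell in footprints by 0.76, 0.73 and 0.70 on the log2 scale (adjusted p = 0.0153, 0.009 and 0.0337), and UQCR10 of complex III fell in inputs by 1.05 (adjusted p = 0.000816).

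Mitochondrial ribosomal protein mRNAs, of which 45 of 78 were tested, had 6 lower and 2 higher in footprints (13.3% and 4.44%, median -0.19) and 0 lower and 1 higher in inputs (2 and 2 at an unadjusted p under 0.05 in limma, median -0.08). MRPL20 fell by 1.39 in footprints (84.1 ± 25.3 normalised TPM in QKI7 cells and 217 ± 0.958 in vector cells, SD, n = 2 each; adjusted p = 0.00279 in limma). Cytosolic ribosomal protein mRNAs had 55 of 74 lower and 1 higher in footprints (median -0.36) and 48 of 74 lower in inputs (median -0.48). Regulators of mitochondrial genes had 2 of 10 tested. YY1 rose by 1.05 in footprints (58.4 ± 11.2 in QKI7 cells and 27.5 ± 3.21 in vector cells; adjusted p = 0.00414) and by 1.32 in translation efficiency (adjusted p = 0.0151). TFAM, which packages mitochondrial DNA and starts its transcription, fell by 0.64 in footprints (40.5 ± 1.92 in QKI7 cells and 63.6 ± 3.61 in vector cells; adjusted p = 0.0159).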

How the data were processed

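The authors deposited 1 table of TPM for 26902 entries in 8 libraries, with 2 decimals. Per the submitters' processing notes, STAR, RSEM 1.2.31 and GRCh38 were used; the annotation and strand setting are not given in the sources used here. Groups came from the sample titles. Symbols were matched to RefSeq (GRCh38.p14): 23970 by symbol, 1404 by an older symbol and 1528 not at all, and 18788 entries were protein-coding.

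Deposited TPM were multiplied by a library factor (median of ratios over genes tested, and a common constant). The main test used R 4.3.3 and its package limma 3.58.1 (functions lmFit and eBayes, trended prior variance) on log2(normalised TPM + 1), over 2715 protein-coding genes with a mean of at least 1 deposited TPM in inputs and 0.2 in footprints, with 4 group means and 4 residual degrees of freedom. P-values were two-sided. Log2 changes understate those of low genes. The smallest p of an exact permutation of 2 against 2 libraries is 0.333, and calls therefore rest on variance information borrowed across genes. The fit was tested on simulated data.

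The subunit set, gene lists and tests were chosen with earlier results of these data known. Named were the core subunits, NDUFAB1, NDUFA4, every called subunit mRNA, the 3 highest and 3 lowest in inputs, footprints and their ratio, and up to 4 called genes of each other list and contrast, of which a selection is printed. Alternatives covered scaling, pseudocount, filter, variance prior, replicate block and left-out libraries. Same-numbered libraries did not deviate together (correlations of -0.06 to 0.02), which does not settle whether they share a culture. Promoter windows were RefSeq's, and 5 subunit genes had none; 1 subunit mRNA is counted in the totals but not reported here; protein lengths were not used here.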

Additional observations from a re-analysis of the deposited data

Results flagged for a closer look

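In 3 subunit mRNAs the effect of QKI7 in footprints differed from that in inputs by the test of the interaction in limma. The effect in footprints minus that in inputs was -1.0910 for NDUFB9 and -0.9476 for NDUFV2 on the log2 scale, with lower QKI7 footprints at overlapping inputs. For NDUFB7 it was 1.1694, with higher QKI7 footprints beside lower QKI7 inputs, neither of which passed alone. Groups of 2 libraries are too small to look for single libraries that stand apart.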

How the results depend on the processing

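The number of reads is unknown, groups hold 2 libraries, and many footprint values lie near the rounding of the table, which limits calls for low mRNAs. Counts below are of subunit mRNAs called, of 2 in inputs, 8 in footprints, 3 in translation efficiency and 18 in footprint against input for QKI7 and for vector cells. With TPM as deposited, 7, 5 and 6 were called in inputs, footprints and translation efficiency; with no filter 0, 4 and 1, and in footprint against input 34 for QKI7 and 31 for vector cells; with a stricter filter, which leaves 2 subunit mRNAs, 0, 2 and 0, and 2 and 2; with the lower filter 30 and 29 in footprint against input. Quantile scaling gave 5 in footprints and 5 in translation efficiency, no variance trend 1 in inputs and 4 in footprints, and a fit of inputs alone 4 in inputs. Leaving out each library gave 0 to 3 in inputs, 3 to 9 in footprints, 0 to 4 in translation efficiency, and 17 to 18 (QKI7) and 15 to 18 (vector) in footprint against input. The replicate number as a block (replicate block) gave 1 in inputs, 6 in footprints, 3 in translation efficiency, and 18 and 17. Whether the numbers pair the libraries is not stated in the labels.

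Median log2 changes moved as follows. In inputs the deposited scale gave 0.024 (all entries 0.15). In footprints the stricter filter gave -0.42, and left-out libraries -0.35 to -0.12. In translation efficiency the lower filter gave 0.032, and left-out libraries -0.19 to 0.045; in inputs they gave -0.11 to -0.02. Footprint against input in QKI7 cells was -0.49 as deposited, 0.89 with protein-coding sums, 1.05 with sums without RELN, GRK3 and DICER1, 2.44 with no filter, 1.87 stricter, 2.43 lower and 1.34 to 1.61 with left-out libraries. In vector cells it was -0.44, 1.55, 1.57, 2.48, 2.16, 2.19 and 1.61 to 1.96 in the same order, and 1.86 with a pseudocount of 5. The medians of all genes tested moved with the filter too. With no filter, the stricter and the lower filter they were -0.96, 0.77 and 0.35 in QKI7 cells, and -1.12, 0.66 and 0.40 in vector cells. NDUFB7 in vector cells, footprint against input, turned to -1.66 as deposited, where the median of all entries was -1.81. The cause of these differences was not tested, other than that filters change which genes are tested. NDUFB9 and NDUFV2 kept their footprint calls in 20 of 20 alternatives each that could test them.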
